A study of Mus musculus with 15 samples.

Results

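The livers of 6 pregnant mice at 8 dpc (days post-coitum) were compared, 3 from mice given AAV8-p21 and 3 from mice given AAV8-null, out of 15 whole livers sequenced in 5 groups of 3. The members were chosen by their column names in the deposited count table. All were wild-type C57BL/6 females by the labels (C57BL/6N in the study's methods), used as young adult virgins and injected through the tail vein with 100 µl of virus before mating. AAV8-p21 is an adeno-associated virus of serotype 8 that carries mouse p21 cDNA behind the promoter of thyroxine-binding globulin (TBG), which is active in hepatocytes, and AAV8-null is the same vector without the insert, so both groups carried virus. The remaining 9 livers, which entered the fit for its estimate of the spread, came from AAV8-null mice that were non-pregnant (NP) or at 16 dpc and from AAV8-p21 mice at 16 dpc. The comparison asks what forced p21 expression in hepatocytes did to the liver transcriptome at mid-pregnancy, when the study saw maternal hepatocytes divide.

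p21, encoded by Cdkn1a, binds cyclin-dependent kinases and stops the cell cycle, and it is a classic target of p53. When these kinases are held inactive, the retinoblastoma family proteins stay bound to E2F factors and to the DREAM complex, and genes for DNA replication and for mitosis are kept off. Genes of the second class often have a CHR element (cell cycle genes homology region) and CCAAT boxes near their start site. The adult liver rarely divides, but it does so after injury and in pregnancy.

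The 6 libraries held 12977026 to 16176587 counts each. Values are given as CPM, counts scaled to a common library size after TMM normalization, which corrects for a few abundant genes. The hepatocyte list (albumin and other liver products) had a summed level of 95015 to 115800 CPM in AAV8-null and 127550 to 150463 CPM in AAV8-p21 livers, and 0 of its 11 genes were at 0 in any of the 6. AAV8-null liver 3 stood apart from its own group, and AAV8-p21 liver 3 did so to a lesser degree. AAV8-null liver 3 correlated at r = 0.955 and 0.949 with AAV8-null livers 1 and 2 of its own stage, which correlated at 0.984 with each other, and at 0.978 and 0.973 with NP livers 2 and 3 (log2 CPM over 12172 genes, a description). NP liver 1 went the other way, with r = 0.963 and 0.968 to AAV8-null livers 1 and 2 of 8 dpc against 0.948 and 0.946 to NP livers 2 and 3. Its highest correlation was 0.973, with AAV8-p21 liver 3 of 8 dpc. That liver correlated at 0.960 and 0.966 with AAV8-p21 livers 1 and 2, which correlated at 0.982 with each other. The labels were kept as given, and many results are given with and without AAV8-null liver 3. Those given only once include that liver. It was picked out by these same expression values, so a p-value without it follows a choice made on the data. Because whole liver was sequenced, fewer cells of a type and less RNA per cell cannot be told apart.

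Cdkn1a (ENSMUSG00000023067), the gene that the virus carries, was at 27.2, 16.5 and 33.4 CPM in livers 1, 2 and 3 of AAV8-null mice and at 648, 628 and 347 CPM in AAV8-p21 livers 1, 2 and 3. Every AAV8-p21 liver was above every AAV8-null liver, and AAV8-p21 liver 3 was the lowest of its group. The means were 25.7 ± 8.55 and 541 ± 169 CPM (SD, n = 3 each), a log2 fold change of 4.40 with a standard error (SE) of 0.73. Viral and endogenous transcripts of the gene give the same count and cannot be told apart. This difference had an unadjusted edgeR p of 2.87e-05 and missed the threshold after adjustment over all genes (edgeR adjusted p = 0.0873). Without AAV8-null liver 3 it passed (log2 fold change 4.63, edgeR adjusted p = 0.0485), although its unadjusted edgeR p was higher, at 0.000149. The exact two-sided permutation p was 0.1, the smallest that 3 livers against 3 can give.

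Of 12172 genes tested, 3 were DEGs at 8 dpc (0.0246%), which required an absolute log2 fold change over 1 at an adjusted p under 0.05. Adjusted p throughout is the Benjamini-Hochberg value over all genes tested by the quasi-likelihood test of edgeR. All 3 were lower with p21. An unadjusted p under 0.05 was reached by 631 genes (5.18%), 327 of them lower (2.69%) and 304 higher (2.5%). The 3 AAV8-p21 livers lay entirely below the 3 AAV8-null livers for 547 genes (4.49%) and entirely above for 672 (5.52%). Without AAV8-null liver 3, 38 of 12368 genes were DEGs (0.307%), with 37 lower (0.299%) and 1, Cdkn1a, higher (0.00809%). They included all 3 DEGs of the fit with every library, and 16 were members of the mitotic gene list. That list does not hold every cell cycle gene among them, and Ckap2 is one outside it.

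**Figure D1:**
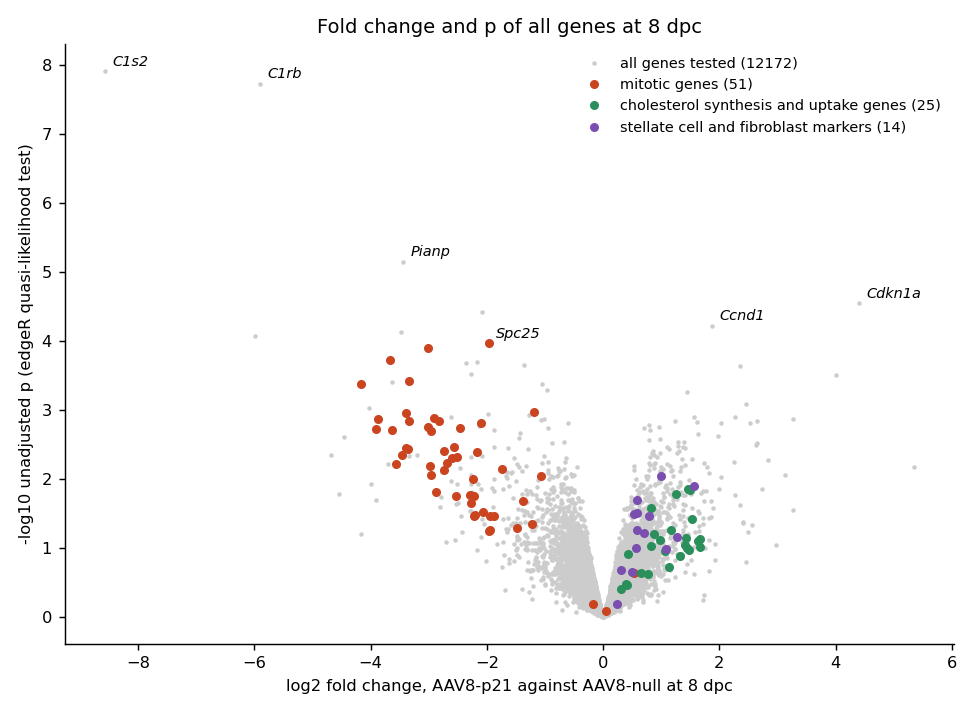
Log2 fold change (x axis, AAV8-p21 against AAV8-null at 8 dpc) against −log10 of the unadjusted p (y axis) for each of the 12172 genes tested, with 3 gene lists in colour and 6 genes named. The mitotic genes (51 points) lie left of 0 except for 2, the cholesterol genes (25) and stellate cell markers (14) all lie right of 0, and C1s2, C1rb and Pianp stand above the rest.

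Cyclin D1 was the highest-ranked gene after Cdkn1a among those higher in AAV8-p21 livers. Ccnd1, which encodes the D cyclin that starts G1 progression with CDK4 and CDK6, was at 72.6, 116 and 95.7 CPM in the AAV8-null livers and at 225, 417 and 398 CPM in the AAV8-p21 livers. The groups did not overlap (log2 fold change 1.87, SE 0.34, edgeR adjusted p = 0.122). Ccnd2 was at 6.34, 4.53 and 4.84 against 8.49, 9.07 and 7.35 CPM, again without overlap (log2 fold change 0.67, edgeR adjusted p = 0.945), and Ccnd3 was at 26.8 to 42.0 against 27.1 to 42.6 CPM, which overlapped. Of the other CDK inhibitor genes tested, Cdkn1b, Cdkn2c and Cdkn2d (log2 fold change −0.70, with overlap) were lower and Cdkn1c was at 0.01, and none passed. Cdkn1b, the gene of p27, was at 21.01, 19.8 and 19.9 CPM in AAV8-null and at 12.3, 9.36 and 7.56 CPM in AAV8-p21 livers (log2 fold change −1.05, edgeR adjusted p = 0.249). Cdkn2c, the gene of p18, was at 11.9, 12.4 and 6.92 against 3.31, 4.05 and 4.90 CPM (log2 fold change −1.35, edgeR adjusted p = 0.187, or 0.0249 without AAV8-null liver 3). Neither gene overlapped between the groups. Rbl2, which encodes the retinoblastoma family protein p130 of the DREAM complex, was at 45.6, 36.2 and 43.3 against 31.9, 30.02 and 19.8 CPM, and Lin54, which encodes the DREAM subunit that binds the CHR, was at 8.15, 6.97 and 7.49 against 5.77, 5.08 and 3.64 CPM. Both were lower in each AAV8-p21 liver (log2 fold changes −0.61 and −0.64, edgeR adjusted p = 0.882 and 0.759). Of the 18 genes tested in the list of D cyclins, their kinases and CDK inhibitors, 3 were higher and 4 lower at an unadjusted p under 0.05 (2.5% and 2.69% over all genes), and 0 were DEGs. Cdkn2a and Cdkn2b, the inhibitor genes linked to senescence, were below the filter on low counts.

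Mitotic genes were lower in AAV8-p21 livers than in AAV8-null livers 1 and 2, while AAV8-null liver 3 sat near the AAV8-p21 livers. Mki67, the gene of the proliferation antigen Ki67, was at 43.8, 45.4 and 4.11 CPM in AAV8-null and at 4.44, 5.71 and 8.90 CPM in AAV8-p21 livers. AAV8-null liver 3 was the lowest of the 6, and the groups overlapped (log2 fold change −2.30, SE 0.86, edgeR adjusted p = 0.772, or −2.82 with adjusted p = 0.201 without AAV8-null liver 3). The study separately counted Ki67-stained periportal hepatocytes under both viruses at 8 dpc, which is protein in a single zone rather than RNA of whole liver. Hmmr, which encodes the hyaluronan-mediated motility receptor, a spindle protein that the study followed as a periportal protein at midgestation, was at 13.6, 12.9 and 1.61 against 0.296, 0.799 and 0.841 CPM. All AAV8-p21 livers were below all AAV8-null livers (log2 fold change −3.87, SE 0.98, edgeR adjusted p = 0.415, or −4.37 with adjusted p = 0.0521 without AAV8-null liver 3). Ccnb1, the cyclin that drives entry into mitosis, was at 8.96, 8.16 and 1.144 against 0.247, 0.285 and 0.490 CPM, also without overlap (log2 fold change −4.16, edgeR adjusted p = 0.249, or −4.65 with adjusted p = 0.0249 without that liver).

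**Figure D2:**
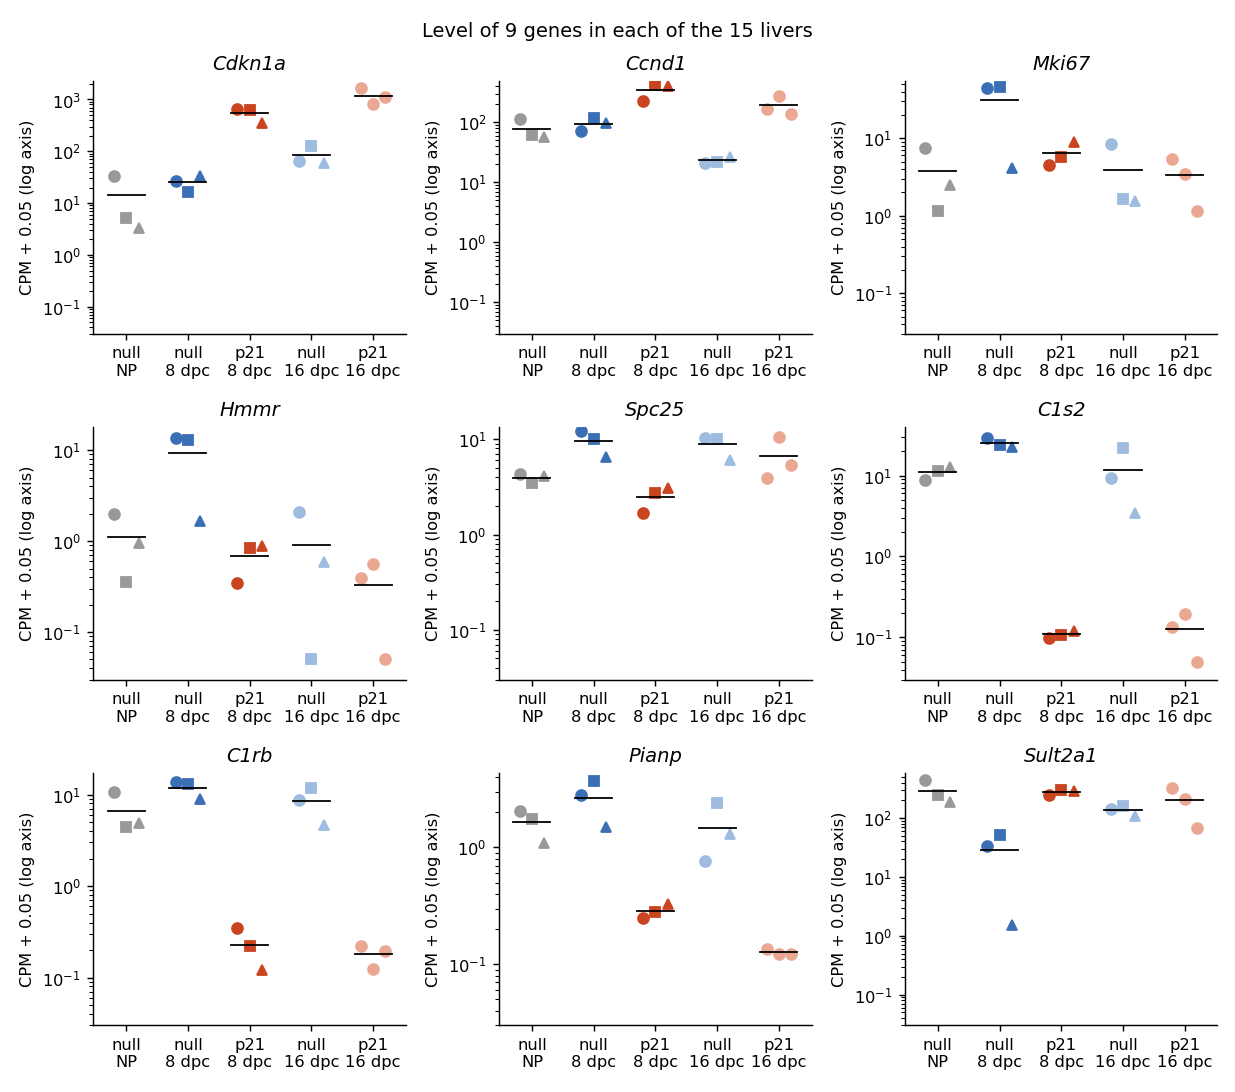
CPM + 0.05 (y axis, log scale) of 9 genes in each of the 15 livers, by group (x axis). Circle, square and triangle are livers 1, 2 and 3, except that the AAV8-p21 livers of 16 dpc, whose numbers were not matched, are all circles, and the bar is the group mean. In the panels for Mki67 and Hmmr the triangle of AAV8-null at 8 dpc (4.11 and 1.61 CPM) lies far below the other 2 AAV8-null livers, and in those for C1s2, C1rb and Pianp the AAV8-p21 livers of both stages lie below every AAV8-null liver.

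Kinetochore and centrosome genes gave the mitotic genes of lowest p. Spc25, a subunit of the NDC80 complex that holds microtubules, was at 12.2, 9.94 and 6.45 CPM in AAV8-null and at 1.63, 2.68 and 3.01 CPM in AAV8-p21 livers (log2 fold change −1.97, SE 0.37, edgeR adjusted p = 0.147, or 0.0258 without AAV8-null liver 3). Nek2, a centrosome kinase, was at 12.4, 10.3 and 4.58 against 0.642, 0.970 and 1.82 CPM (log2 fold change −3.01, edgeR adjusted p = 0.155, or 0.0249 without it). Knl1, the kinetochore scaffold, was at 4.25, 3.63 and 0.624 against 0.148, 0.171 and 0.350 CPM (log2 fold change −3.66, edgeR adjusted p = 0.187, or 0.00782 without it). None of these 3 overlapped between the groups, and AAV8-null liver 3 was the lowest AAV8-null liver for each. Over the list, 51 of 53 genes passed the filter and 49 of these were lower, with a median log2 fold change of −2.54 and a range of −4.16 to 0.52, against a median of −0.0023 over all genes. At an unadjusted p under 0.05, 45 of the 51 were lower (2.69% over all genes), 12 did not overlap between the groups (4.49%), and 0 were DEGs (0.0246%). The exceptions to the direction were Pttg1 (securin) and Cit (citron kinase). Without AAV8-null liver 3 the median of these 51 was −3.03 and 16 were DEGs (0.299% over all genes, lower). The mean log2 CPM over the list was 3.04, 3.09 and 0.48 in AAV8-null livers 1, 2 and 3 and −0.45, 0.25 and 0.86 in the AAV8-p21 livers. The same mean was 0.92, −0.67 and −0.17 in the NP livers, so AAV8-null liver 3 and all 3 AAV8-p21 livers lay within the range of the NP livers and AAV8-null livers 1 and 2 lay above it.

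**Figure D3:**
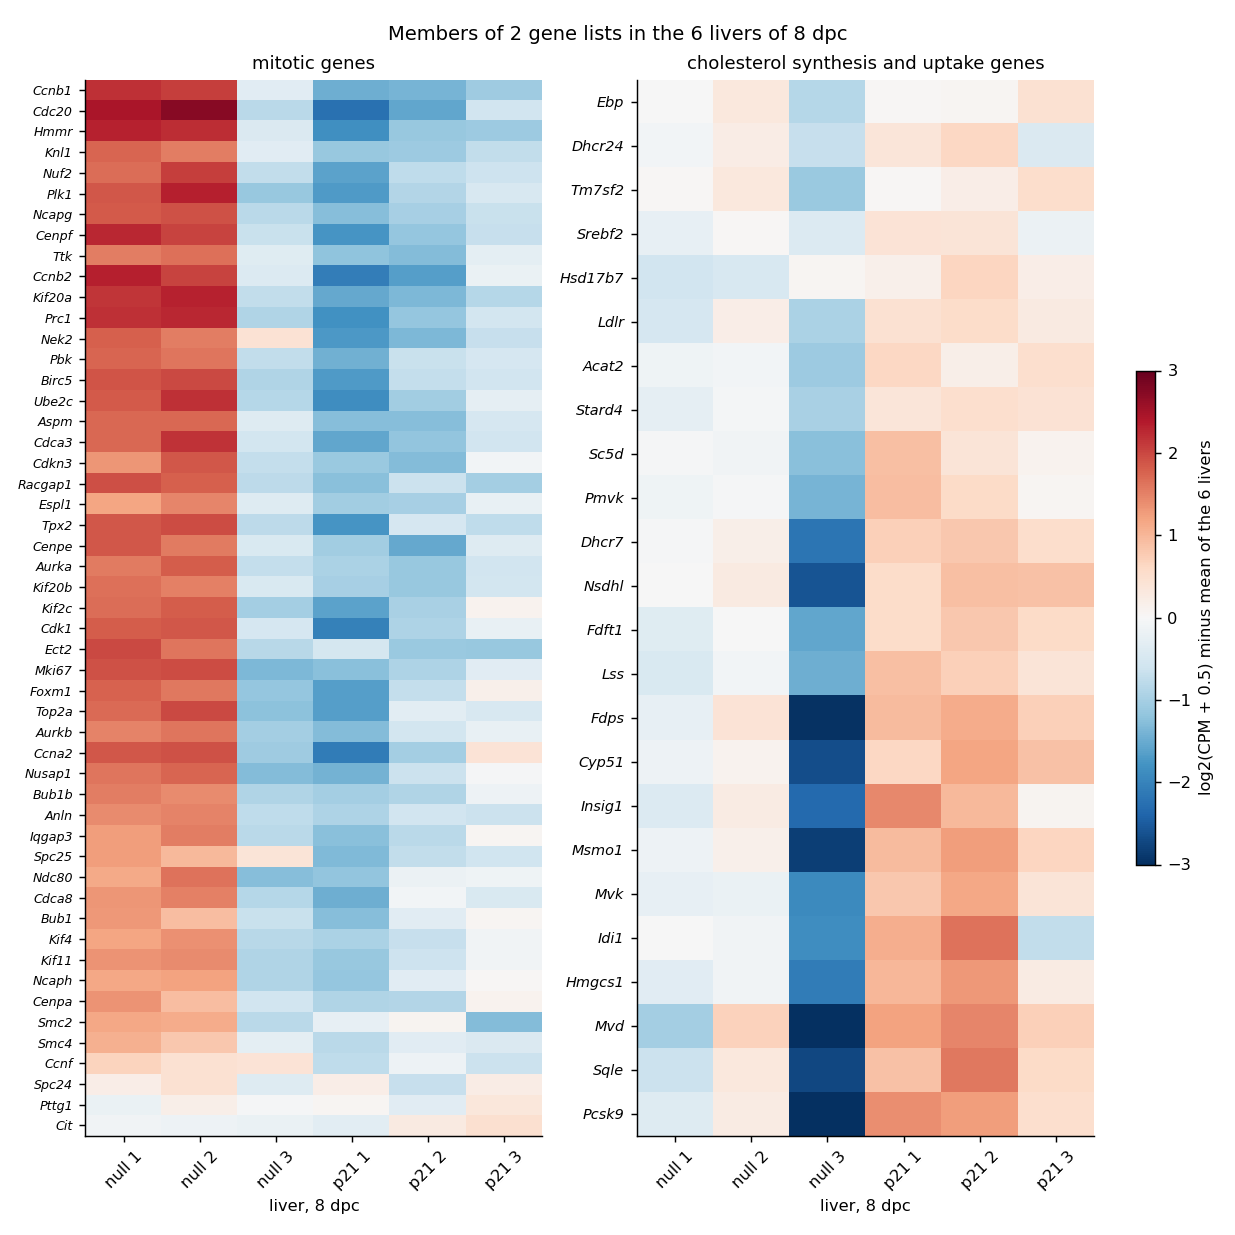
Level of each mitotic gene (left, 51 genes) and cholesterol gene shown (right, 24 genes) in the 6 livers of 8 dpc (x axis), as log2(CPM + 0.5) minus the mean of the 6 livers, with colours capped at −3 and 3. AAV8-null livers 1 and 2 are high for nearly all mitotic genes and AAV8-null liver 3 is not, while AAV8-null liver 3 is the lowest liver for most cholesterol genes.

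The start sites of these genes are shown for the mitotic members with a CHR close to the start and the lowest p. The letters TTTGAA of the CHR occurred on either strand within 250 bases before the start in 16 of the 45 mitotic genes that matched RefSeq's promoter table by symbol (35.6%), in 5 of 39 G1/S genes (12.8%) and in 4934 of all 27025 genes (18.3%). CCAAT occurred in 31 of the 45 mitotic genes (68.9%), 26 of the 39 G1/S genes (66.7%) and 37.5% of all genes. The 2 patterns can share bases, and a match is a description of the letters, not a site. The 80 bases before the start are given 5′ to 3′ on the gene's strand, from RefSeq on GRCm38.p6, with TTTGAA in capitals.
Prc1 (spindle midzone protein, chr7:80294396-80294475, plus strand): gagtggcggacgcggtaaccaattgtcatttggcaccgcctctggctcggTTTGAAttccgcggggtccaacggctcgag
Cdc20 (activator of the anaphase-promoting complex, chr4:118437344-118437423, minus strand): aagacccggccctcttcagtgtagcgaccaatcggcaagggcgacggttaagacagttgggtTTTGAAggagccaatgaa
Espl1 (separase, chr15:102296213-102296292, plus strand): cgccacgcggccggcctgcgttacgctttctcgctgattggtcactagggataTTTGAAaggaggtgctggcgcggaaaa
Ncapg (condensin subunit, chr5:45669845-45669924, plus strand): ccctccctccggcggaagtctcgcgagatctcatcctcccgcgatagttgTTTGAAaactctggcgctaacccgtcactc
The capitals begin 30, 18, 27 and 30 bases before the start, in the order shown. Prc1 was at 13.9, 14.6 and 1.20 CPM in AAV8-null and at 0.395, 0.913 and 1.68 CPM in AAV8-p21 livers, and Cdc20 was at 21.5, 26.0 and 1.77 against 0.345, 0.856 and 2.17 CPM. For both genes AAV8-null liver 3 fell inside the range of the AAV8-p21 livers (log2 fold changes −3.34 and −3.91, edgeR adjusted p = 0.415 for each). Without AAV8-null liver 3 the adjusted p was 0.0249 for Prc1 and 0.0520 for Cdc20.

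Genes of the G1/S transition and DNA replication had a median nearer 0. Of 46 listed, 43 were tested, 33 were lower and the median log2 fold change was −0.26 (−0.54 without AAV8-null liver 3). At an unadjusted p under 0.05, 4 were lower and 0 higher (2.69% and 2.5% over all genes), and 0 were DEGs. Of the 43, 11 were lower at that p without AAV8-null liver 3 (3.08% over all genes). Rrm2, the ribonucleotide reductase subunit that is made in S phase, was at 16.9, 16.5 and 6.45 CPM in AAV8-null and at 2.62, 3.48 and 7.85 CPM in AAV8-p21 livers, with overlap (log2 fold change −1.53, edgeR adjusted p = 0.586). Ccne2, a cyclin of G1/S, was lower in every AAV8-p21 liver, at 0.247, 0.571 and 0.210 CPM against 0.698, 0.774 and 1.40 (log2 fold change −1.46, edgeR adjusted p = 0.865). Mcm2, a subunit of the replicative helicase, was at 3.90, 4.76 and 3.17 CPM in AAV8-null and 3.55, 4.34 and 4.06 CPM in AAV8-p21 livers, and Pcna, the sliding clamp, at 19.7, 18.5 and 13.3 against 14.2, 14.6 and 19.6 CPM. Those ranges overlapped for both genes.

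The 3 DEGs all lie on chromosome 6 and are not cell cycle genes. C1rb and C1s2 are close together, and Pianp lies further along, with genes between them that were not called. C1s2 (ENSMUSG00000079343, chr6:124624625-124636085, minus strand in GRCm38), a paralog of the complement protease C1s, had 499, 399 and 430 counts in AAV8-null livers and 1 count in each AAV8-p21 liver. That is 22.4 to 29.0 CPM against 0.0494 to 0.0700 CPM, with no overlap and a ratio of summed counts per library size of 433 (95% exact interval 148 to 2103, counting error only). C1rb (ENSMUSG00000098470, chr6:124570294-124581171, plus strand), a paralog of C1r, had 235, 216 and 173 counts against 6, 3 and 1, a ratio of 61.1 (33.0 to 128). Pianp (ENSMUSG00000030329, chr6:124996694-125003096, plus strand), a membrane protein that binds the receptor PILRα, had 47, 61 and 28 counts against 4 in each AAV8-p21 liver, a ratio of 11.1 (6.15 to 21.99). Their log2 fold changes were −8.57, −5.91 and −3.44, with edgeR adjusted p = 0.000114, 0.000114 and 0.0289. C1s2 and C1rb were DEGs when any 1 of the 6 libraries was omitted, whereas Pianp was a DEG only without AAV8-null liver 3 among those 6 fits (edgeR adjusted p = 0.00782, against 0.0799 to 0.244 in the other 5).

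The difference in these 3 genes was also present at 16 dpc, in livers of neither 8 dpc group, although they entered the same fit through its estimate of the spread. At that stage C1s2 had 103, 263 and 38 counts in AAV8-null and 1, 2 and 0 counts in AAV8-p21 livers, C1rb had 98, 143 and 52 against 2, 1 and 2, and Pianp had 8, 28 and 14 against 1 in each (edgeR adjusted p = 0.00112, 0.000781 and 0.0385). The NP AAV8-null livers had 126, 188 and 181 counts of C1s2. For each of the 3 genes, all AAV8-p21 livers were below all AAV8-null livers at both stages. The gene span from C1rb to Pianp, with 200000 bases on either side, holds 38 genes of the table, and 33 of these were tested. The other 30 were not called, with 12 lower and 18 higher and log2 fold changes from −2.92 (the mitotic gene Cdca3) to 1.136 (Lag3). C1ra and C1s1, their close copies, lie next to the pair with log2 fold changes of 0.04 and 0.27 (edgeR adjusted p = 1 for both). Only uniquely mapped reads were counted, so reads shared between the copies are missing from all 4. In the complement list, 21 of 33 tested were higher (median log2 fold change 0.09), and the 2 DEGs were C1s2 and C1rb (0.0246% over all genes). The list turned to 13 higher and 20 lower (median −0.06) when AAV8-null liver 3 was left out, with 5 instead of 2 lower at an unadjusted p under 0.05 (3.08% and 2.69% over all genes).

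The list of p53 and its targets, which includes Cdkn1a, was on the low side. Of 30 tested, 22 were lower, with a median log2 fold change of −0.28, and at an unadjusted p under 0.05 8 were lower and 1, Cdkn1a, was higher (2.69% and 2.5% over all genes). Without AAV8-null liver 3, 4 were lower at that p (3.08% over all genes). Ckap2, a spindle protein that is also a cell cycle gene, was at 13.97, 14.8 and 1.144 CPM in AAV8-null and at 0.345, 0.799 and 0.7005 CPM in AAV8-p21 livers (log2 fold change −4.02, edgeR adjusted p = 0.415, or −4.55 with adjusted p = 0.0249 without AAV8-null liver 3). Ddit4, a stress-induced inhibitor of mTORC1, was at 7.97, 11.8 and 10.8 against 5.18, 6.56 and 4.13 CPM, and Ccng1, cyclin G1, at 53.5, 46.9 and 48.1 against 32.7, 35.9 and 29.4 CPM. Neither overlapped (log2 fold changes −0.94 and −0.60, edgeR adjusted p = 0.627 and 0.759). Mdm2, which encodes the ligase that degrades p53, was at 22.9, 21.02 and 33.0 against 18.95, 17.7 and 18.5 CPM, also without overlap. Among 23 tested senescence-associated secreted factors, 15 were higher (median log2 fold change 0.06), and 2 passed an unadjusted p under 0.05, the protease inhibitor Timp2 and Igfbp7 (log2 fold changes 0.65 and 0.58, edgeR adjusted p = 0.736 and 0.767). That is against 2.5% over all genes, and 0 were higher at that p without AAV8-null liver 3.

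Genes of lipid synthesis were on the high side without passing the edgeR test. All 25 cholesterol synthesis and uptake genes had a positive log2 fold change (49.6% over all genes), between 0.31 and 1.66 with a median of 1.18, and 25 of 25 were positive without AAV8-null liver 3 as well (median 0.84). At an unadjusted p under 0.05, 5 were higher (2.5% over all genes), 19 did not overlap (5.52%), and 0 were DEGs. Without AAV8-null liver 3, 1 was higher at that p (1.96% over all genes). Mvk, mevalonate kinase, was at 11.3, 11.7 and 3.23 against 23.9, 30.5 and 17.8 CPM, and Lss, lanosterol synthase, at 29.9, 39.2 and 14.8 against 78.4, 67.9 and 54.2 CPM. AAV8-null liver 3 was the lowest for both genes, and the groups did not overlap (log2 fold changes 1.46 and 1.26, or 1.07 and 0.95 without it, with edgeR adjusted p = 0.763 and 0.770 from all libraries). Sqle, squalene epoxidase, showed how far that liver stood from the rest, at 24.4, 47.7 and 5.36 CPM against 70.5, 116 and 57.5 CPM (log2 fold change 1.66, or 1.18 without it).

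The promoters of the cholesterol genes are shown because CCAAT, the letters bound by NF-Y, were common in them. They occurred within 250 bases before the start in 16 of 17 genes that matched (94.1%), against 37.5% of all genes and 13 of 20 de novo lipogenesis genes (65%). TCACNCCAC, a form of the sterol regulatory element, occurred in 1 of 17 (5.88%, against 1.22%). These are the 120 bases before the start of 3 members of lowest p with such a match, 5′ to 3′ from RefSeq on GRCm38.p6, with CCAAT or its reverse complement ATTGG in capitals.
Mvk (chr5:114444149-114444268, plus strand): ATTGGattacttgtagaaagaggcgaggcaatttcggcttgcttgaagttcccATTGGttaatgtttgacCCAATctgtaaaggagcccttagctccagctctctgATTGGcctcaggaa
Lss (chr10:76531485-76531604, plus strand): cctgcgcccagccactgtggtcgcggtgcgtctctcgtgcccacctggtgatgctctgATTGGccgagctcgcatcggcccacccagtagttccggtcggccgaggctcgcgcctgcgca
Hmgcs1 (HMG-CoA synthase, chr13:119690231-119690350, plus strand): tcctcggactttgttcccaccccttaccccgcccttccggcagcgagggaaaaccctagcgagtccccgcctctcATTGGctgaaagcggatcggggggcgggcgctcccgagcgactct
Hmgcs1 was at 171, 200 and 50.4 CPM in AAV8-null and at 431, 531 and 258 CPM in AAV8-p21 livers, without overlap (log2 fold change 1.53, edgeR adjusted p = 0.921).

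De novo lipogenesis genes, which build fatty acids from acetyl-CoA, followed the same direction in 21 of 25 tested (median log2 fold change 0.59, or 0.50 without AAV8-null liver 3). At an unadjusted p under 0.05, 7 were higher and 1 lower (2.5% and 2.69% over all genes), 12 lay entirely above the AAV8-null livers (5.52%), and 0 were DEGs. The counts were 4 higher and 0 lower without AAV8-null liver 3 (1.96% and 3.08% over all genes). Mid1ip1, which promotes polymerization of acetyl-CoA carboxylase, was at 17.0, 21.4 and 10.7 CPM in AAV8-null and at 52.3, 43.4 and 48.9 CPM in AAV8-p21 livers (log2 fold change 1.56, SE 0.39, edgeR adjusted p = 0.415, or 1.33 with adjusted p = 0.465 without AAV8-null liver 3). Elovl6, the elongase of palmitate, was at 74.1, 79.8 and 53.1 against 255, 181 and 207 CPM (log2 fold change 1.64, edgeR adjusted p = 0.454). Fasn, fatty acid synthase, was at 190, 315 and 98.4 against 796, 611 and 665 CPM (log2 fold change 1.78, edgeR adjusted p = 0.627, or 1.45 without AAV8-null liver 3). None of the 3 overlapped, and AAV8-null liver 3 was the lowest for each. Lpin1, a phosphatidate phosphatase that is also a fasting-induced coactivator, was the 1 lower gene with an unadjusted p under 0.05, at 138, 75.9 and 280 against 36.5, 29.6 and 84.3 CPM, with overlap (log2 fold change −1.72, edgeR adjusted p = 0.628).

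**Figure D4:**
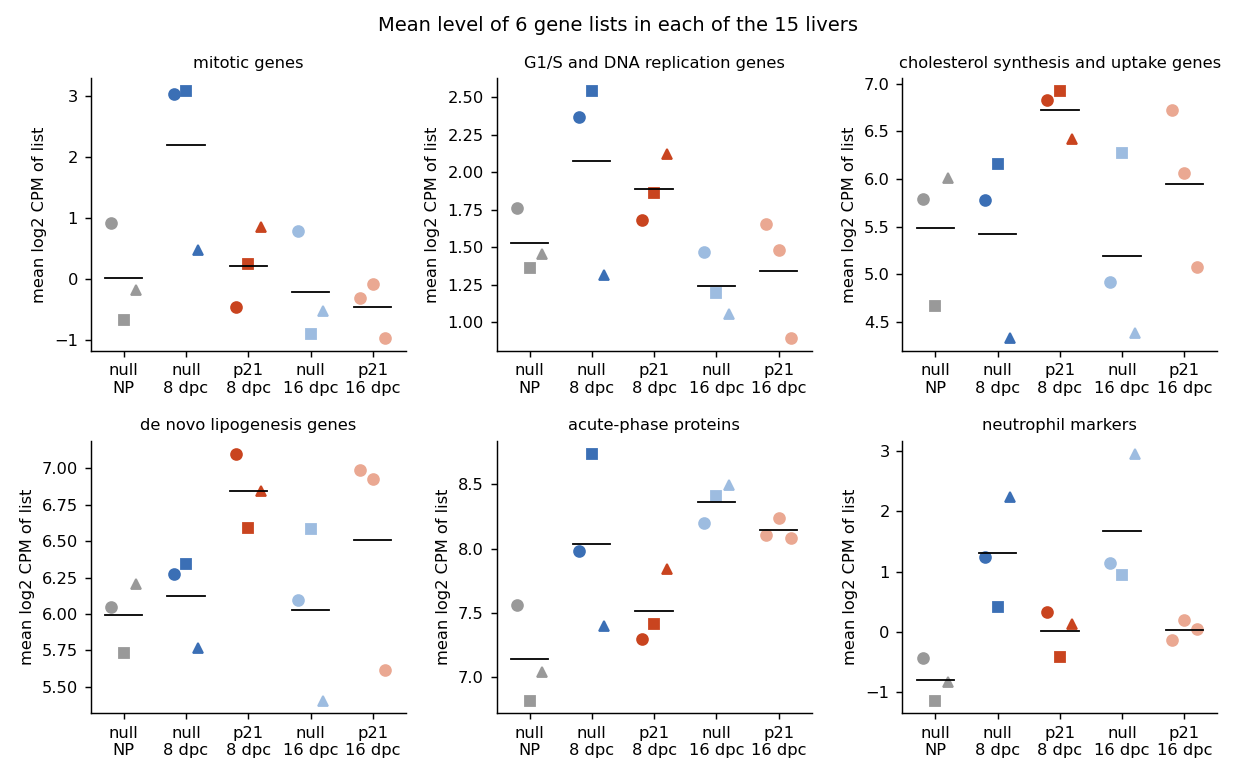
Mean log2 CPM of 6 gene lists (y axis) in each of the 15 livers, by group (x axis), with symbols as in the plot of single genes and a bar at the group mean. The AAV8-p21 livers of 8 dpc lie above all AAV8-null livers of 8 dpc in the cholesterol list (6.42 to 6.92 against 4.33 to 6.16) and the lipogenesis list (6.59 to 7.10 against 5.76 to 6.34), and AAV8-null liver 3 lies apart from the other 2 in the mitotic list.

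Fatty acid oxidation and PPARα targets were lower in 31 of 35 tested (median log2 fold change −0.33), but only in 19 of 35 without AAV8-null liver 3 (median −0.06). Acot1, a PPARα-responsive thioesterase, was at 61.6, 33.3 and 214 CPM in AAV8-null and at 22.4, 29.1 and 80.4 CPM in AAV8-p21 livers (log2 fold change −1.23, or −0.11 without it). Cidec, a lipid droplet protein, was at 1.16, 1.13 and 40.6 against 0.197, 0.457 and 1.89 CPM (log2 fold change −4.16, or −0.53 without it). AAV8-null liver 3 was the highest of the 6 for both. Cyp4a32, a fatty acid ω-hydroxylase with close copies in its cluster, did not overlap, at 44.2, 24.8 and 38.7 against 9.23, 13.98 and 13.2 CPM (log2 fold change −1.56, edgeR adjusted p = 0.638, or −1.51 without AAV8-null liver 3).

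Acute-phase proteins were lower in 25 of 30 (median log2 fold change −0.42) and in 28 of 30 without AAV8-null liver 3 (median −0.43). At an unadjusted p under 0.05, 8 were lower and 0 higher (2.69% and 2.5% over all genes), and 0 were DEGs. Lbp, which carries bacterial lipopolysaccharide, was at 170, 179 and 168 CPM in AAV8-null and at 108, 104 and 129 CPM in AAV8-p21 livers, which did not overlap (log2 fold change −0.60, SE 0.15, edgeR adjusted p = 0.415). Saa1, serum amyloid A, was high in a single liver, at 42.1, 869 and 19.6 against 27.7, 33.2 and 31.0 CPM, and Saa2 likewise at 18.8, 596 and 7.59 against 17.8, 11.5 and 18.6 CPM. For both, the groups overlapped apart from AAV8-null liver 2 (log2 fold changes −3.34 and −3.70, edgeR adjusted p = 0.586 and 0.627). Serpina3n, an inducible protease inhibitor, was at 548, 692 and 434 against 202, 287 and 282 CPM without overlap (log2 fold change −1.12, edgeR adjusted p = 0.686).

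Immediate-early genes, which respond to growth factors and stress, were lower in 12 of 22 tested. At an unadjusted p under 0.05, 3 were lower and 0 higher (2.69% and 2.5% over all genes), 4 lay entirely below the AAV8-null livers and 0 entirely above (4.49% and 5.52%), and 0 were DEGs. Fos was at 4.48, 4.23 and 9.05 CPM in AAV8-null and at 2.22, 0.970 and 1.26 CPM in AAV8-p21 livers, without overlap (log2 fold change −1.98, SE 0.49, edgeR adjusted p = 0.415). Unfolded protein response genes were lower in 23 of 28 (median log2 fold change −0.29), and the 2 with an unadjusted p under 0.05 were Herpud1, a degradation factor of the endoplasmic reticulum, and Sesn2, a stress sensor (log2 fold changes −1.004 and −0.51). That is against 2.69% lower over all genes, and 1 was lower at that p without AAV8-null liver 3 (3.08% over all genes). Interferon response genes were higher in 37 of 41 (median 0.32) but in 26 of 41 without AAV8-null liver 3 (median 0.03). Of the 41, 0 had an unadjusted p under 0.05 (2.5% higher and 2.69% lower over all genes). Entirely above the AAV8-null livers lay 5 (5.52%) and entirely below 0 (4.49%). The core clock list changed its median from −0.27 to 0.05 when AAV8-null liver 3 was left out, and Dbp, a clock output factor, ranged from 0.642 to 61.4 CPM among the AAV8-p21 livers.

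The study named regulators of glucose and glycogen use for late pregnancy, and its heatmap of them includes livers of 8 dpc. Their levels at 8 dpc are given here. Slc45a3, a sugar transporter, was at 42.8, 46.0 and 43.6 CPM in AAV8-null and at 35.1, 36.6 and 15.1 CPM in AAV8-p21 livers, which did not overlap. Sgk1, a kinase induced by glucocorticoids, was at 9.72, 8.75 and 26.8 against 18.9, 13.6 and 11.5 CPM, and its log2 fold change turned from −0.04 to 0.67 without AAV8-null liver 3. H6pd, which makes NADPH in the endoplasmic reticulum, was at 531, 443 and 282 against 284, 374 and 359 CPM, and Pdk4, which inhibits pyruvate dehydrogenase, at 36.0, 15.7 and 14.6 against 23.4, 13.7 and 16.6 CPM. Both overlapped. Among 33 tested enzymes of glycolysis and gluconeogenesis, 23 were higher (median log2 fold change 0.11), 2 of them at an unadjusted p under 0.05 (2.5% over all genes), or 4 without AAV8-null liver 3 (1.96%). The 2 were Pfkp and Pklr, isoforms of phosphofructokinase and pyruvate kinase (log2 fold changes 0.74 and 0.73). Pck2, the mitochondrial PEP carboxykinase, was lower without overlap, at 7.80, 7.03 and 4.42 CPM in AAV8-null and at 3.01, 3.08 and 3.92 CPM in AAV8-p21 livers (log2 fold change −0.94, edgeR adjusted p = 0.415). In the sugar transporter list 9 of 11 were lower and 0 had an unadjusted p under 0.05 (2.69% lower and 2.5% higher over all genes).

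Of the zonation lists, the pericentral one was on the high side and the periportal one had a median near 0. Of 24 pericentral genes, 19 were higher (median log2 fold change 0.25, or 0.15 without AAV8-null liver 3), 6 of them without overlap (5.52% over all genes), and of 24 periportal genes 9 were higher (median −0.04). The farthest from 0 were Cyp7a1, the first enzyme of bile acid synthesis (1.35, or 0.99 without AAV8-null liver 3), and Apoa4, an apolipoprotein (−2.02, or 0.16 without it), both with adjusted p = 1 from edgeR. Glul, glutamine synthetase of the cells around the central vein, was at 626, 622 and 631 CPM in AAV8-null and at 792, 797 and 767 CPM in AAV8-p21 livers. The groups were each within a narrow range and did not overlap, but the gene did not pass (log2 fold change 0.33, SE 0.18, edgeR adjusted p = 1). Nkd1, a feedback inhibitor that Wnt induces, was at 3.61, 3.63 and 2.55 against 4.84, 5.82 and 6.16 CPM (log2 fold change 0.78, edgeR adjusted p = 0.654). Cyp2e1, a pericentral cytochrome P450, was on the other side, at 6289.5, 5528 and 6813 against 3526, 3527 and 4619 CPM, again with no overlap (log2 fold change −0.67, edgeR adjusted p = 0.898). Cyp1a2, another pericentral P450, was at 360, 340 and 94.8 against 375, 381 and 411 CPM, and its log2 fold change of 0.55 was 0.15 without AAV8-null liver 3. Axin2, Tbx3 and Cyp17a1 overlapped between the groups, with log2 fold changes of 0.16, 0.08 and 0.47. The other hepatocyte lists had medians near that of all genes. These were 0.08 for 40 cytochrome P450 genes, 0.03 for 21 glycogen enzymes, 0.04 for 29 targets of growth hormone, prolactin and STAT5, −0.01 for 34 urea cycle and amino acid genes, −0.06 for 24 bile acid genes and 0.04 for 11 hepatocyte genes, each with 0 DEGs.

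**Figure D5:**
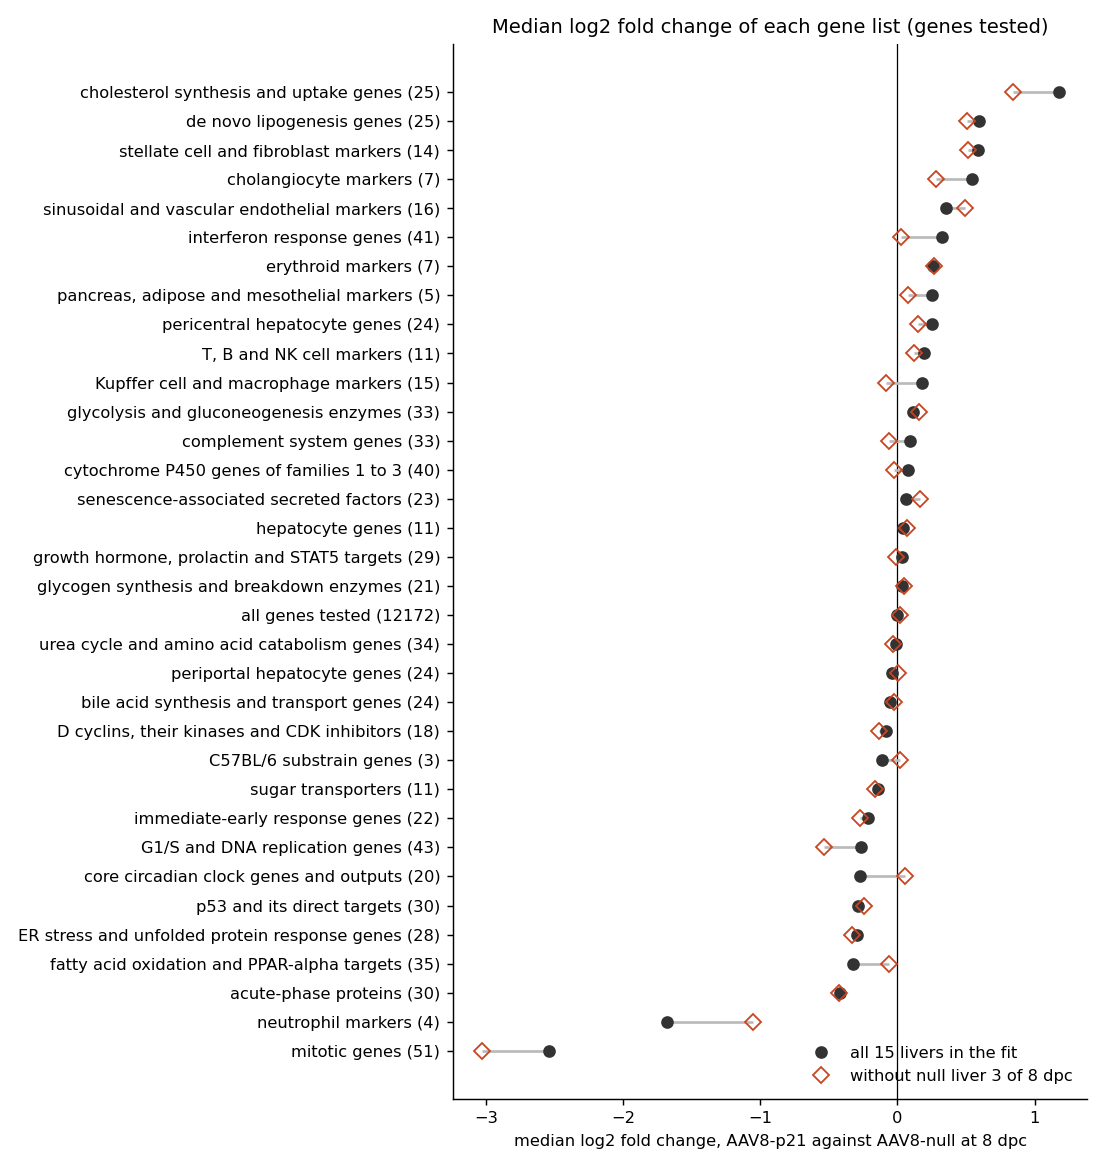
Median log2 fold change (x axis, AAV8-p21 against AAV8-null at 8 dpc) of each gene list and of all genes tested, with all libraries in the fit (filled circles) and without AAV8-null liver 3 of 8 dpc (open diamonds), and the number of genes tested in brackets. The mitotic list is lowest (−2.54 and −3.03) and the cholesterol list highest (1.18 and 0.84), and all other medians lie within 1 log2 unit of 0 except for the 4 neutrophil markers (−1.68 and −1.05).

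Markers of other liver cells differed in part between the viruses, and their part in the results above was not tested. All 14 stellate cell and fibroblast markers were higher (median log2 fold change 0.58), 6 of them at an unadjusted p under 0.05 (2.5% over all genes) and 0 as DEGs. All 14 were again higher without AAV8-null liver 3, and 1 reached that p (1.96% over all genes). Their summed level was 211 to 328 CPM in AAV8-null and 360 to 435 CPM in AAV8-p21 livers, with 0 of the 14 at 0 in any liver. Reln, reelin, which stellate cells secrete, was at 20.3, 13.7 and 15.7 against 41.2, 33.3 and 24.4 CPM with no overlap (log2 fold change 0.996, SE 0.33, edgeR adjusted p = 0.654), and Dcn, decorin, was at 99.4, 61.0 and 81.0 against 148, 98.3 and 101 CPM with overlap. Endothelial markers were higher in 14 of 16 (summed level 183 to 264 against 235 to 318 CPM), 2 of them at an unadjusted p under 0.05 (2.5% over all genes). One of these was Rspo3, an angiocrine activator of Wnt signalling, at 3.49, 2.26 and 2.34 against 4.49, 4.57 and 5.46 CPM without overlap (log2 fold change 0.84, edgeR adjusted p = 0.576).

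Only 4 of 11 neutrophil markers passed the filter, and all 4 were lower (median log2 fold change −1.68, or −1.05 without AAV8-null liver 3). The summed level of the 11 was 7.62 to 21.3 CPM in AAV8-null livers, highest in AAV8-null liver 3, and 3.42 to 5.92 CPM in AAV8-p21 livers, where 4 or 5 of the markers were at 0. S100a8, a calcium-binding protein abundant in neutrophils, was at 2.79, 2.02 and 4.89 against 1.09, 0.628 and 0.911 CPM without overlap (log2 fold change −1.88, SE 0.54, edgeR adjusted p = 0.545). Macrophage markers had a summed level of 395 to 834 CPM against 645 to 916 CPM, lowest in AAV8-null liver 3, and 13 of 15 were higher (6 of 15 without that liver). Marco, a scavenger receptor, was the 1 with an unadjusted p under 0.05 (2.5% higher over all genes), at 10.1, 12.9 and 6.66 against 55.1, 15.5 and 14.6 CPM, and AAV8-p21 liver 1 was the highest (log2 fold change 1.53, edgeR adjusted p = 0.601). Lymphocyte markers summed to 8.95 to 10.2 against 8.67 to 15.6 CPM, cholangiocyte markers to 28.2 to 37.7 against 47.4 to 66.1 CPM and erythroid markers to 93.9 to 106 against 119 to 203 CPM. Spp1, osteopontin, which bile duct cells make, was at 21.8, 23.2 and 14.2 against 34.6, 31.9 and 49.7 CPM without overlap (log2 fold change 0.97, edgeR adjusted p = 0.723).

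Outside these lists, several genes of lowest p did not overlap between the groups and did not pass the test. Sult2a1, a bile acid and steroid sulfotransferase, was at 34.0, 51.1 and 1.46 CPM in AAV8-null and at 243, 297 and 290 CPM in AAV8-p21 livers (log2 fold change 3.26, edgeR adjusted p = 0.415, or 2.70 with adjusted p = 0.0676 without AAV8-null liver 3). Sult2a1 was at 445, 251 and 186 CPM in the NP livers, so the AAV8-p21 livers lay within the NP range and the AAV8-null livers of 8 dpc below it. Its close copy Sult2a3 was at 1.05, 1.91 and 0 against 22.7, 9.59 and 14.6 CPM, and AAV8-null liver 3 was the lowest for both. How reads were assigned between the copies is uncertain. Akr1b7, an aldose reductase, was at 4.02, 2.38 and 1.30 against 9.72, 9.13 and 18.4 CPM (log2 fold change 2.27, edgeR adjusted p = 0.415, or 1.95 with adjusted p = 0.448 without AAV8-null liver 3). The others on the high side were Srgap3, a GTPase-activating protein, Loxl3, a lysyl oxidase, Cd207, langerin of dendritic cells, and Smoc2, a matricellular protein, with log2 fold changes between 1.24 and 2.65 and adjusted p from 0.187 to 0.415.
On the low side, Rad54b, a DNA repair helicase, was at 1.51, 1.19 and 0.832 CPM in AAV8-null and at 0.247, 0.285 and 0.280 CPM in AAV8-p21 livers (log2 fold change −2.09, edgeR adjusted p = 0.0942, or 0.0239 without AAV8-null liver 3). Cyp4a12a, a fatty acid hydroxylase with male-biased expression and a close copy in Cyp4a12b, had 110, 93 and 12 counts against 0, 3 and 0. The NP livers had 2, 5 and 2 counts of it. The ratio at 8 dpc was 70.1 (95% exact interval 23.7 to 343, counting error only, edgeR adjusted p = 0.129, or 0.00782 without AAV8-null liver 3). Tnfsf10, the death ligand TRAIL, was at 14.96, 27.2 and 9.68 against 5.82, 3.20 and 2.38 CPM (log2 fold change −2.17, edgeR adjusted p = 0.187, or 0.0258 without it). Cox6b2, a cytochrome c oxidase subunit known from testis, had 25, 12 and 63 counts against 2, 3 and 3, with AAV8-null liver 3 the highest (edgeR adjusted p = 0.129).

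Whether the difference between the viruses itself differed between 8 dpc and 16 dpc was tested as an interaction, and 0 of 12172 genes passed edgeR's quasi-likelihood test after adjustment (376 had an unadjusted p under 0.05, 3.09%, and the DESeq2 Wald test and limma voom also gave 0). The 2 comparisons share no livers. Of the 51 mitotic genes, 12 had an unadjusted interaction p under 0.05, and the median log2 fold change of all 51 was −2.54 at 8 dpc and −0.62 at 16 dpc. Ccnd1 had a log2 fold change of 1.87 at 8 dpc and 3.06 at 16 dpc, and Sult2a1 had 3.26 and 0.54, and neither passed the test of the interaction after adjustment. Cholesterol genes had a median of 1.18 at 8 dpc and 0.73 at 16 dpc with 0 of 25 at an unadjusted interaction p under 0.05, and lipogenesis genes 0.59 and 0.48 with 1 of 25.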

How the data were processed

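Whole livers were read by stranded mRNA sequencing. The authors used cutadapt 1.14 for trimming, HISAT2 2.1.0 for alignment to mm10 and HTSeq 0.12.4 for counting unique reads on protein-coding genes (versions from the submitters' processing notes), and the deposited values are raw counts of 21702 genes. Whether counting used the strand is not given in the sources used here, so overlapping genes are uncertain. The main test was edgeR 4.0.16 (R 4.3.3), with TMM factors, filterByExpr (minimum count 10, 12172 genes kept), the quasi-likelihood test over 15 libraries (10 residual degrees of freedom) and Benjamini-Hochberg adjustment. DEGs required an absolute log2 fold change over 1 at an adjusted p under 0.05. Ratios of summed counts have Clopper-Pearson intervals. The exact permutation test used log2(CPM + 0.5). Fits were tested on simulated counts. Alternatives were DESeq2 1.42.0, limma 3.58.1 with voom, other filters, size factors, sample sets and a replicate block. Figures were drawn with matplotlib 3.10.9.

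The members and 33 gene lists were chosen with earlier results of these data known. Named genes were those the study names for its livers, the D cyclins, the DEGs (filled to 10 in each direction with the non-overlapping genes of lowest p and a mean of at least 1 CPM in a group), and up to 3 members of each list by p. Cdkn1b, Rbl2, Lin54, Ccnb1, Pttg1, Cit, Prc1, Cdc20, Espl1, Ncapg, Mcm2, Pcna, Ccng1, Mdm2, Sqle, Hmgcs1, Fasn, Lpin1, Cidec, Serpina3n, Dcn, Cdkn1c, Cdkn2d, Apoa4 and the neighbours of C1rb were named after their values were seen. Of the genes picked by the rule, 1 is not reported here, and the counts and median of its list include it. The labels number 3 samples per group and do not say how they were raised, so p-values measure only the spread between these samples.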

Additional observations from a re-analysis of the deposited data

How the results depend on the processing

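With 3 livers per group and AAV8-null liver 3 apart, calls depended on the libraries and the tool. Against 3 DEGs at 8 dpc, the DESeq2 Wald test on 15 libraries gave 29 (10 in the mitotic list). DESeq2 on 6 libraries gave 70 (19 in the mitotic list and 2 cholesterol genes). The limma voom fit gave 88 (26 in the mitotic list), and edgeR on 6 libraries gave 5. Asking for at least 10 counts in every library removed C1s2, C1rb and Pianp through their low counts with p21, so its 0 edgeR DEGs (428 genes at an unadjusted p under 0.05) do not bear on them, and it left 7 mitotic genes with a median of −1.18. Leaving out each of the 6 libraries gave 2 to 38 DEGs, with 38 without AAV8-null liver 3 and 5 without AAV8-p21 liver 3. Leaving out any of the 6 other than AAV8-null liver 3 gave 0 calls in the mitotic list. Each omission was planned, but the focus on AAV8-null liver 3 followed the data. Chosen after seeing the data, the fit without NP liver 1 gave 7 DEGs. The fit without it and AAV8-null liver 3 gave 58 (24 in the mitotic list). Shares by direction also moved, from 0 higher and 3 lower in the main fit to 7 and 22 by DESeq2 on 15 libraries. They were 23 and 47 by DESeq2 on 6 libraries, and 18 and 70 by limma voom. The cause was not tested.

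Cdkn1a had a log2 fold change of 4.40 in the filter-free fit (adjusted p = 0.0264), 4.39 and 4.40 by DESeq2 on 15 and 6 libraries, 4.71 by limma voom, 4.40 by edgeR on 6 libraries, 4.39 without NP liver 1 and 4.63 without both livers, and passed in each of these. With a library left out it was 4.16 to 4.63 (adjusted p = 0.0485 to 0.462). The mitotic median was −2.19 to −3.004 over the 6 leave-one-out fits (for AAV8-null liver 3, −3.004 over the 52 genes its own filter kept and −3.03 over the 51 tested in both fits), and the interaction gave 0 genes in every fit that tested it.

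The replicate block on 12 libraries gave 2 DEGs, and Pianp and Cdkn1a had adjusted p = 0.127 and 0.268. Same-numbered livers correlated at −0.03, 0.13 and −0.12 in their deviations, and only number 2 correlated best with its own number, so the numbers were not taken as pairs.

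Some genes near 0 turned direction. Sgk1 was at 0.55 by limma voom, 0.12 under the replicate block and 0.67 without NP liver 1 and AAV8-null liver 3, Tbx3 at −0.16 by voom and −0.0084 without both livers, and Ccnd3 at −0.071 by voom and −0.072 without both. With each library left out, Sgk1 ranged from −0.32 to 0.67, Pdk4 from −0.55 to 0.24, Tbx3 from −0.083 to 0.26, Axin2 from −0.24 to 0.33 and Ccnd3 from −0.072 to 0.26. Over the named genes other than Cdkn1a and the alternatives, 57 results gained a call, 7 lost one (all Pianp), 16 turned direction and 484 kept their direction and side.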

Other observations

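Nnt, the mitochondrial transhydrogenase that is partly deleted in C57BL/6J mice and intact in C57BL/6N, was at 0.640, 0.417 and 1.144 CPM in AAV8-null and at 0.790, 0.685 and 0.560 CPM in AAV8-p21 livers of 8 dpc. The labels give C57BL/6 and the study's methods C57BL/6N, and these levels are given with no reading of the substrain. Wdfy1, another gene whose level differs between C57BL/6 substrains, was at 28.8, 26.3 and 6.55 CPM in AAV8-null and at 24.2, 3.99 and 10.3 CPM in AAV8-p21 livers, so the livers of each group fell at different levels.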
